A study of Mus musculus with 12 samples.

Results

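The semaphorins, their plexin receptors and the neuropilin co-receptors were followed in mouse neocortex at E12.5 and at P5, with and without loss of a Chd8 allele. The set holds 31 genes out of 46603 gene identifiers counted at both stages, named by symbol as members of these 3 gene families. The families were picked for study with earlier results of these data known. It comprises 20 semaphorins, 9 plexins and 2 neuropilins. Every one of the 31 genes was found in the count tables. The semaphorins divide into 7 secreted class 3 genes, 6 transmembrane class 4 genes, 2 of class 5, 4 of class 6 and the GPI-anchored Sema7a. The plexins divide into 4 class A genes, 3 class B genes, Plxnc1 and Plxnd1.

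The 12 RNA-seq libraries, 3 for each genotype and stage, came from dissected cortex. An E12.5 library drew on both hemispheres of the brain, a P5 library on 1. Chd8+/- mice carry a constitutive null allele of Chd8, which encodes a chromatin remodelling factor, obtained when β-actinCre deleted the loxP-flanked exon 3. They were bred with C57BL/6J mice, the Cre transgene was bred out, and the controls were Chd8+/+ mice on the C57Bl/6J background. The loss is present in every cell of the animal, so the model does not separate neurons from vessels, glia or membranes around the brain. E12.5 is a stage of progenitor expansion, and P5 one of axon growth, guidance and synapse formation. The sources used here do not say whether each library is a different animal, so p-values measure the spread between libraries.

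Semaphorins are guidance cues that tell growing axons, dendrites, migrating neurons and blood vessels where to go, mostly by repulsion and in some settings by attraction. Class 3 semaphorins are secreted and mostly bind a neuropilin, which holds the ligand, together with a class A plexin, which carries the signal into the cell through its GTPase-activating domain. The membrane-bound classes bind plexins directly, typically class 4 to class B plexins and class 6 to class A plexins, whereas Sema7a acts on Plxnc1 and on β1 integrin. In the developing cortex these genes are known for guiding callosal and corticofugal axons, orienting apical dendrites, placing interneurons and limiting synapse number.

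Each library held between 38774591 and 54695236 counts. The pair of sequencing runs of each library were summed, because they differed by little more than sampling noise. In each group 1 library of 3 carried Xist counts between 34849 and 96118 against 8 to 114 in the others, so the sexes are spread alike over the groups. Libraries of a group differed by a chi-square per degree of freedom of 7.09 to 18.1, except that P5 Chd8+/- replicate 3 stood apart from its group, at 49.65 and 43.7. Chd8 itself was lower in every Chd8+/- library, with 94.1 to 97.7 CPM (counts scaled to a common library size) at P5 against 143 to 148 in Chd8+/+, and 164 to 169 against 233 to 238 at E12.5. The edgeR log2 fold changes of Chd8 were -0.61 and -0.51, with adjusted p of 7.21e-05 and 0.00562. The 10 cortical excitatory neuron markers were all detected, and the summed level of 11 progenitor markers in Chd8+/+ went from 2773 to 3017 TPM (scaled for exon length as well) at E12.5 to 378 to 383 TPM at P5.

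The question of which ligands and receptors the cortex expresses was addressed first with levels per length, in TPM, which can be compared between genes. At E12.5 receptors led. Plxnb2, a class B plexin that neural progenitors use, was the highest gene of the set, with 180.5, 156 and 180.3 TPM in the Chd8+/+ libraries. Plxna1, a signalling partner of neuropilins, followed at 107 ± 5.66 TPM (SD, n = 3) and Plxnb1, the receptor of Sema4d, at 103 ± 12.98 TPM, and the ranges of these 2 genes overlapped. The highest semaphorin was Sema4c, a ligand of Plxnb2, at 55.9 ± 3.71 TPM, which did not separate from Sema5b at 54.5 ± 9.64 TPM. The lowest genes were Sema3b, Sema3e, Sema3d and Plxnb3, with means of 1.37, 1.35, 0.697 and 0.101 TPM. Plxnb3 had only 3 to 11 counts per library at E12.5.

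At P5 a ligand led. Sema7a, a cue that promotes axon outgrowth through integrins, stood at 177, 174 and 181 TPM in the Chd8+/+ libraries, above every other member. Plxna1 came next at 145 ± 5.41 TPM, followed by Plxnd1, the receptor of Sema3e, at 123 ± 2.43 TPM and Sema4g at 120 ± 12.3 TPM. Plxnd1 and Sema4g overlapped in range. Plxnb2 was down to 73.7 ± 2.51 TPM. Both neuropilins lay in the middle, Nrp1 at 48.0 ± 0.832 TPM and Nrp2 at 36.4 ± 1.65 TPM. The lowest P5 members were Sema3d, Plxnb3, Sema3g and Sema3b, between 2.84 and 3.64 TPM on average, and each overlapped its neighbour. Over the whole order of 31 genes, 18 of 30 neighbouring pairs overlapped in range in Chd8+/+ at E12.5 and 17 of 30 at P5. In Chd8+/- the overlapping pairs numbered 19 and 22.

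The other genes filled the middle of the order. Among the secreted ligands in Chd8+/+, Sema3f, which acts through Nrp2, was the highest at both stages, at 14.7 ± 2.47 TPM at E12.5 and 22.8 ± 2.36 TPM at P5 (SD, n = 3). Sema3c stood at 10.1 ± 0.748 and 19.4 ± 0.648 TPM, and Sema3a at 7.49 ± 0.163 and 10.5 ± 0.516 TPM. Several transmembrane ligands lay above it. Sema6c was at 42.9 ± 5.2 and 60.7 ± 4.17 TPM, and Sema6a and Sema6d lay between 24.3 and 37.1 TPM on average at both stages. Sema4a, Sema4b and Sema4d, by contrast, had averages of 11.2 to 19.2 TPM at E12.5 and of 20.3 to 32.2 TPM at P5. Of the receptors not yet given, Plxna2 was at 62.3 ± 1.58 and 55.96 ± 0.579 TPM, Plxna3 at 70.2 ± 10.96 and 86.1 ± 10.5 TPM, and Plxnc1 at 31.2 ± 0.682 and 44.3 ± 1.59 TPM.

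**Figure D1:**
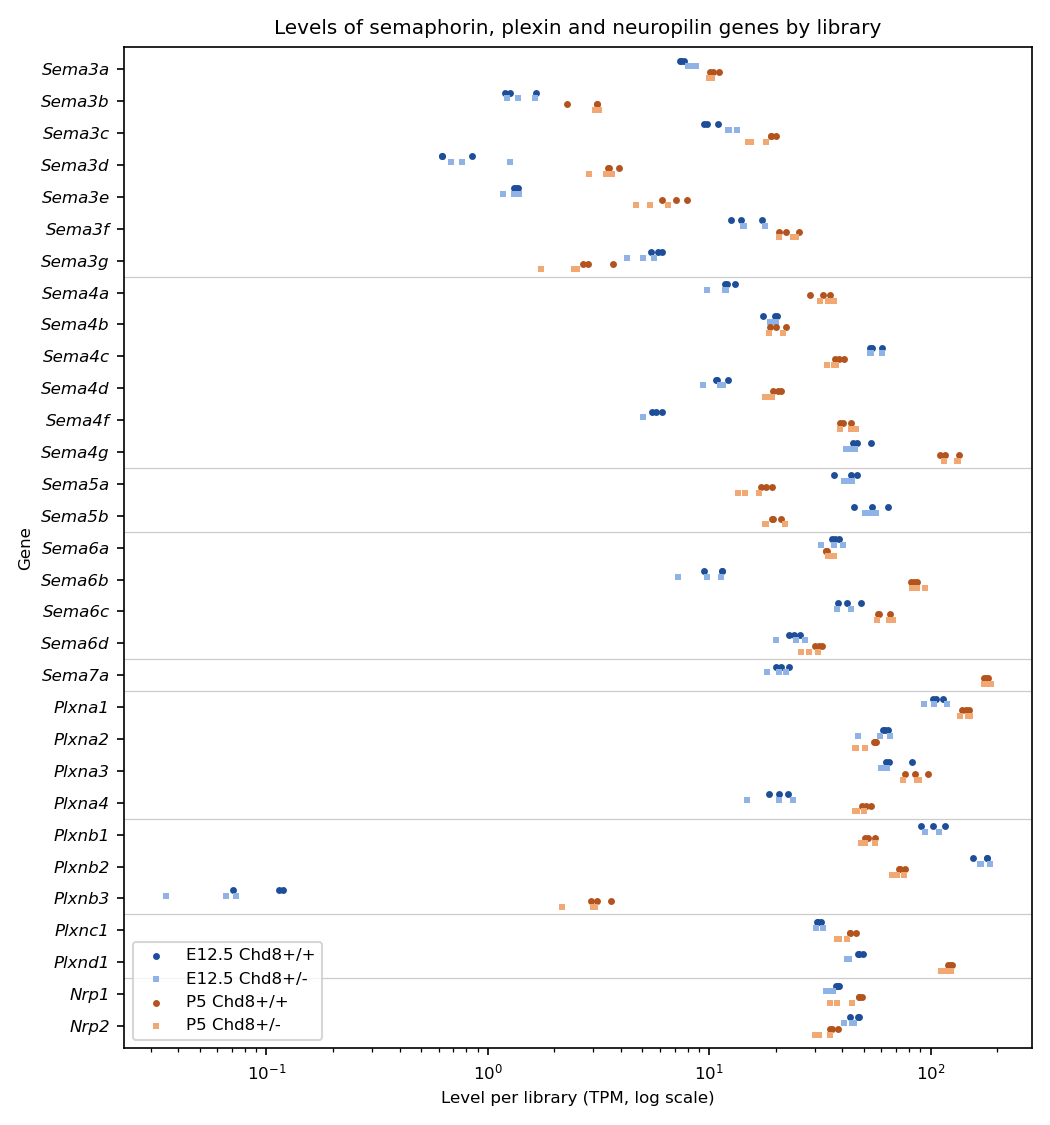
Level of each gene in each library, in TPM on a log scale, with 3 libraries per group and grey lines between classes. Most genes separate by stage, with Sema7a, Sema6b, Sema4f and Plxnb3 far to the right at P5 and Sema5a, Sema5b and Plxnb2 to the left, whereas the genotypes lie close together.

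Summed over the 20 semaphorins, the level in Chd8+/+ was 428 ± 30.4 TPM at E12.5 and 768 ± 30.3 TPM at P5. The makeup of that sum differed between the stages. Sema7a gave 23.1% ± 0.486 of the P5 sum (SD, n = 3), and the class 5 pair Sema5a and Sema5b gave 22.6% ± 2.18 of the E12.5 sum. The secreted class 3 genes together held 9.70% ± 0.557 at E12.5 and 9.02% ± 0.136 at P5, so that most semaphorin RNA encoded membrane-bound ligands at both stages. Summed plexin levels were 615 ± 34.6 TPM and 635 ± 25.1 TPM, while class B plexins went from 275.3 ± 26.2 to 130 ± 5.24 TPM and class A plexins from 260 ± 8.31 to 338 ± 18.7 TPM. The summed neuropilin level was 83.9 ± 2.89 TPM at E12.5 and 84.4 ± 1.77 TPM at P5, with Nrp1 at 45.3% of it at E12.5 and 56.9% at P5.

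The change from E12.5 to P5 was tested in each genotype with edgeR on all 12 libraries. In Chd8+/+, 28 of the 31 members passed an adjusted p of 0.05, 21 higher at P5 and 7 lower. Of all 19676 genes tested, 83.1% passed, 41.4% higher and 41.7% lower, so the share of members that changed is near the background. The members' median log2 fold change was 0.53, against -0.018 over all genes. With an offset for genomic span, an alternative chosen after seeing the data, the split became 16 higher and 12 lower, and the median 0.21. Such offsets take out each library's trend of counts on gene size, so their values are relative to genes of like size. In Chd8+/- 29 members passed, 21 higher and 8 lower, where 82.9% of all genes passed, 41.3% higher and 41.6% lower. The offset for genomic span gave 15 higher and 13 lower there. An offset for exon length gave 19 higher and 9 lower in each genotype. In Chd8+/+ the median of all genes itself moved to -0.16 with the offset for span and to -0.19 with that for exon length. The shares of all genes given here are those without offsets, so the splits with offsets cannot be set against them. Stage cannot be told apart from the separate sequencing of the stages, their separate count tables or the use of 2 hemispheres against 1.

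Among semaphorins, the largest rises in Chd8+/+ belonged to genes of 3 different classes. Sema7a had 21.7, 21.1 and 19.7 CPM at E12.5 and 175, 178 and 176 CPM at P5, normalized over all 12 libraries, which gave a log2 fold change of 3.08 ± 0.0619 (SE, adjusted p = 3.99e-15, edgeR). Sema6b, a class 6 ligand of Plxna4, had 13.1, 13.7 and 11.2 CPM at E12.5 and 97.8, 107 and 98.8 CPM at P5, with a log2 fold change of 3.00 ± 0.122 (adjusted p = 7.10e-12, edgeR). Sema4f, which is found at glutamatergic synapses, had 9.31, 9.20 and 8.76 CPM at E12.5 and 63.9, 63.8 and 68.4 CPM at P5, with a log2 fold change of 2.85 ± 0.0607 (adjusted p = 6.88e-15, edgeR). In each of these genes every P5 library lay above every E12.5 library. The Chd8+/- log2 fold changes of Sema7a, Sema6b and Sema4f were 3.17, 3.25 and 3.12.

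The semaphorins that fell were fewer. Sema5b, a class 5 ligand with thrombospondin repeats, had 131, 96.2 and 115 CPM at E12.5 and 41.0, 42.8 and 43.9 CPM at P5, a log2 fold change of -1.42 ± 0.0928 (SE, adjusted p = 1.90e-09, edgeR). Its class partner Sema5a had 135, 119 and 151 CPM at E12.5 and 62.4, 57.8 and 57.4 CPM at P5, a log2 fold change of -1.19 ± 0.0827 (adjusted p = 3.96e-09, edgeR). Sema3g, a secreted ligand known from blood vessels, had 8.0, 8.05 and 7.38 CPM at E12.5 and 4.99, 3.79 and 3.80 CPM at P5, a log2 fold change of -0.89 ± 0.142 (adjusted p = 3.75e-05, edgeR). Both class 5 genes therefore fell, and Sema3g was the only class 3 gene of 7 that did in Chd8+/+. The remaining called fall among semaphorins was that of Sema4c, at -0.50.

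The other class 3 genes rose in both genotypes, though relative to genes of like span (offsets for genomic span) Sema3a was at -0.70 in Chd8+/+ and -0.81 in Chd8+/-, and Sema3c at -0.16 in Chd8+/-. Their Chd8+/+ log2 fold changes ran from 0.52 for Sema3a, a repellent of cortical axons, through 0.67 for Sema3f and 0.98 for Sema3c to 2.41 for Sema3d and 2.42 for Sema3e. Sema3b, at 1.08, is also in this group. Of the class 4 genes, Sema4a, Sema4d, Sema4f and Sema4g rose, with 1.42, 0.88, 2.85 and 1.34, whereas Sema4b at 0.12 did not pass. Within class 6, Sema6b, Sema6c and Sema6d rose, with 3.00, 0.53 and 0.39, though Sema6d turned to -0.95 with offsets for genomic span (-0.96 in Chd8+/-), and Sema6a at -0.098 did not pass. The Sema6d call in Chd8+/- was lost without E12.5 Chd8+/- replicate 2 (adjusted p = 0.0794, edgeR) and without P5 Chd8+/- replicates 2 or 3 (adjusted p = 0.0752 and 0.0551). Offsets for exon length ended the Sema6d call in both genotypes (0.0672 in Chd8+/+ and 0.227 in Chd8+/-, edgeR).

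Receptors changed in both directions as well. Plxnb3, a receptor of Sema5a, had 0.212, 0.138 and 0.230 CPM at E12.5 and 7.06, 5.88 and 5.96 CPM at P5, with a log2 fold change of 4.99 ± 0.225 (SE, adjusted p = 2.26e-11, edgeR). That value rests on few reads, since the E12.5 libraries held no more than 11 counts. Plxnd1 had 104, 104 and 103 CPM at E12.5 and 264, 278.3 and 270.01 CPM at P5, a log2 fold change of 1.39 ± 0.0399 (adjusted p = 1.46e-13, edgeR). Plxna4, a receptor of class 6 semaphorins and of Sema3a, had 75.5, 96.9 and 87.2 CPM at E12.5 and 216, 215 and 224 CPM at P5, a log2 fold change of 1.33 ± 0.131 (adjusted p = 2.13e-07, edgeR). With the offset for genomic span the Plxna4 value was 0.16 and did not pass (adjusted p = 0.284, edgeR). Plxna4 spans 443925 bases, which places it among the longest genes of the set.

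Plxnb2 had 369, 334 and 383 CPM at E12.5 and 155, 159 and 161 CPM at P5, a log2 fold change of -1.19 ± 0.056 (SE, adjusted p = 3.74e-11, edgeR). Plxnb1 had 320, 261 and 294 CPM at E12.5 and 151, 150 and 158 CPM at P5, a log2 fold change of -0.93 ± 0.0715 (adjusted p = 1.29e-08, edgeR). Nrp2, the neuropilin through which Sema3f acts, had 160, 169 and 153 CPM at E12.5 and 136, 129 and 125 CPM at P5, a log2 fold change of -0.30 ± 0.055 (adjusted p = 0.000133, edgeR). In each of these falls the stages did not overlap. Nrp1 had a log2 fold change of 0.37 in Chd8+/+, which offsets for genomic span turned to -0.21, and to -0.35 in Chd8+/-. In Chd8+/- the Nrp1 value was 0.16 (adjusted p = 0.0187, edgeR), and the call was lost when Chd8+/- replicate 2 was left out at E12.5 (0.0915) or at P5 (0.144), with only the libraries of this genotype (0.0516) and with offsets for exon length (-0.011, 0.877). Plxna1, Plxna3 and Plxnc1 rose by 0.46, 0.33 and 0.54 in Chd8+/+, though the Plxna3 libraries of the stages overlapped, its call was lost with offsets for exon length (0.14, adjusted p = 0.0864, edgeR) and Plxnc1 turned to -0.070 with offsets for genomic span (-0.17 in Chd8+/-). Plxna2 did not pass in Chd8+/+ at -0.13, and passed in Chd8+/- at -0.25 (adjusted p = 0.0239, edgeR), a call lost without E12.5 Chd8+/- replicates 1 or 3 or P5 Chd8+/- replicate 1, at 0.209, 0.111 and 0.0791, and also with RLE size factors (0.0659) or only the libraries of this genotype (0.0852). The Chd8+/+ calls also turned on single libraries and on settings, since Plxna2 and Sema6a passed as lower with either offset. Plxna2 passed without E12.5 Chd8+/- replicate 2 (adjusted p = 0.0409, edgeR), Sema6a without E12.5 Chd8+/- replicates 2 or 3 (0.0289 and 0.0163) or with only the libraries of this genotype (0.0322), and Sema4b without P5 Chd8+/+ replicate 1 (0.0360) or with RLE size factors (0.0468).

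**Figure D2:**
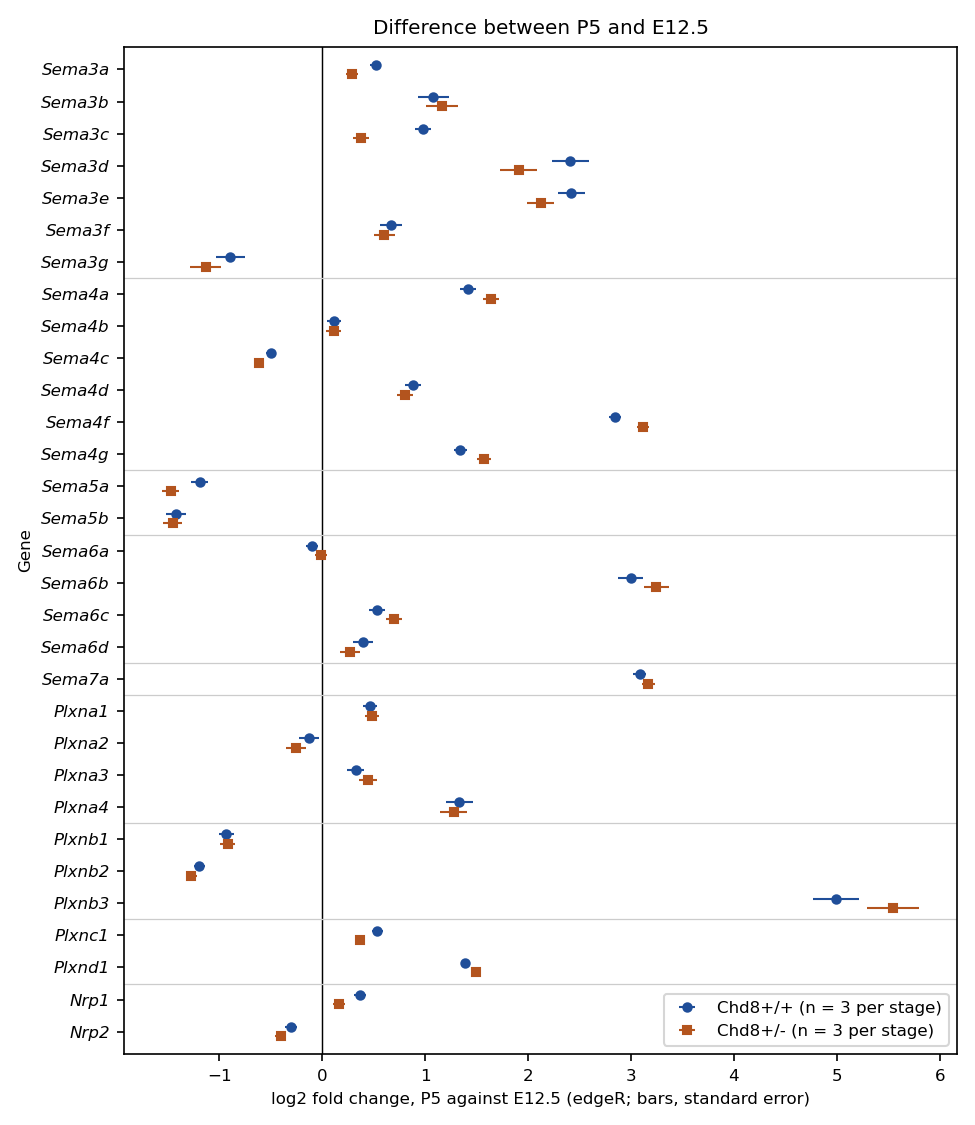
Log2 fold change of each gene from E12.5 to P5 in Chd8+/+ (blue circles) and Chd8+/- (orange squares), with bars for the standard error of the edgeR fit on 12 libraries. Both genotypes run in a like order, from Plxnb3 at 4.99 and Sema7a at 3.08 to Sema5b at -1.42 in Chd8+/+.

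Markers of other cell types moved with stage too. In Chd8+/+, 9 of 10 oligodendrocyte lineage markers, 6 of 7 astrocyte markers and 7 of 8 microglia markers were called higher at P5, and 11 of 11 progenitor markers were called lower, where 41.4% of all genes were called higher and 41.7% lower. The summed oligodendrocyte lineage level was 107 to 120 TPM at E12.5 and 461 to 483 TPM at P5 in Chd8+/+, and no marker on these lists was at 0. In whole tissue, fewer cells of a type and less RNA per cell cannot be told apart. The part of cell composition in the stage changes of semaphorins and plexins was not tested.

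The sequences before the start sites of 4 genes are shown because these genes carry the main results, with Sema7a and Sema4f for the large rises, Sema5a for the falls, and Nrp1 for the genotype comparison at P5. Each run gives the 250 bases 5′ of a start site, from RefSeq on GRCm38.p6, 5′ to 3′ on the strand of the gene, with CG dinucleotides in capitals. Sema7a is on the plus strand at chr9:57939862-57940111, Sema4f on the minus strand at chr6:82939770-82940019, Sema5a on the plus strand at chr15:32244563-32244812 and Nrp1 on the plus strand at chr8:128358823-128359072.
Sema7a: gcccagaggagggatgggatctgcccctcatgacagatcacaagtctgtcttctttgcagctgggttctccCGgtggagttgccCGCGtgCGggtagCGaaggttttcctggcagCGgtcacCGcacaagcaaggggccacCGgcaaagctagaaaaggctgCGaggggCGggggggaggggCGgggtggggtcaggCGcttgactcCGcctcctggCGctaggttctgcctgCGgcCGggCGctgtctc
Sema4f: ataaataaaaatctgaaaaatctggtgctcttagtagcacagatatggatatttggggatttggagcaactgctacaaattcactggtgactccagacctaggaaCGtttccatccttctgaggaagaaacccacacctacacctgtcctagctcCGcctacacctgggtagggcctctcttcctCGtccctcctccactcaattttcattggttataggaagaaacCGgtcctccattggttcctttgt
Sema5a: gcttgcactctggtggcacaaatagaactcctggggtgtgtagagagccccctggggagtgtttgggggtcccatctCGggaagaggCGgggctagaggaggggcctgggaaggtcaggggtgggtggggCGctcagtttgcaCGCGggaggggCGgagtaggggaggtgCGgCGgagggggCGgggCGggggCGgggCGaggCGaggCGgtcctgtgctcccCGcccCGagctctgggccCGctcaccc
Nrp1: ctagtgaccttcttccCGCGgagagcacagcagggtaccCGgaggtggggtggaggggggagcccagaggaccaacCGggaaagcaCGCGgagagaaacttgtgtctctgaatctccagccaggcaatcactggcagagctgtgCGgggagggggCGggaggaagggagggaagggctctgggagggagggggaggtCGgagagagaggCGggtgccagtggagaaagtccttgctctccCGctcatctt

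These windows held 17 CG dinucleotides for Sema7a, 4 for Sema4f, 17 for Sema5a and 11 for Nrp1. Whether the CG number goes with the change between the stages was not tested. RefSeq windows were matched for 26 members, 37 windows in all, with a median of 13 CG against 6 over all 32851 windows. A GC box, searched as GGGCGG on both strands and itself holding a CG, was present in 27 of the 37 windows, or 73.0%, compared with 32.7% of all windows. TATAAA, searched on both strands, was in 0 of the 37 windows and in 12.4% of all windows. No entry was matched for Sema3b, Sema3f, Sema6a, Plxna1 or Plxna4. The matches describe these letters only.

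The question of whether loss of a Chd8 allele changes guidance genes at P5, when cortical axons are growing, was addressed by comparing the genotypes within the stage. None of the 31 members passed an adjusted p of 0.05 in edgeR, where 0.00536% of 18666 genes passed, which is Chd8 alone. At an unadjusted p under 0.05 there were 11 members, 10 lower and 1 higher in Chd8+/-, or 35.5% of members compared with 17.8% of all genes, 9.77% lower and 8% higher. DESeq2 called 4 members, all lower, namely Plxna2, Nrp1, Sema5a and Sema3c, where it called 5.28% of 12362 genes, 3.57% as lower. Of the 20 semaphorins 10 were below 0, and of the 11 plexins and neuropilins 10, as were 49.6% of all genes. The difference between ligands and receptors was not tested. The members' median log2 fold change was -0.034, compared with 0.0017 for all genes.

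The receptors gave the smallest adjusted p. Plxna2, a class A plexin that Sema6a binds, had 283, 289 and 282 CPM in Chd8+/+ and 234, 256 and 246 CPM in Chd8+/-. Every Chd8+/- value lay under every Chd8+/+ value, and the log2 fold change was -0.22 ± 0.0409 (SE, adjusted p = 0.0950 in edgeR and 0.000314 in DESeq2). Nrp1, the co-receptor of Sema3a and of VEGF, had 82.9, 84.98 and 83.9 CPM in Chd8+/+ and 66.8, 76.5 and 64.5 CPM in Chd8+/-. Again the groups did not overlap, and Chd8+/- replicate 2 was the closest to the controls. The log2 fold change of Nrp1 was -0.28 ± 0.0563 (adjusted p = 0.0973 in edgeR and 0.00136 in DESeq2). These 2 genes were the only members under an adjusted p of 0.1 in edgeR, as were 0.729% of all genes.

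Other receptors were lower by less. Nrp2 had 133, 126 and 123 CPM in Chd8+/+ and 107, 122 and 116 CPM in Chd8+/-, which come close without overlapping. Its log2 fold change was -0.15 ± 0.0517 (adjusted p = 0.178, edgeR). Plxnc1, the receptor of Sema7a, had 106, 103 and 98.5 CPM in Chd8+/+ and 88.8, 96.6 and 94.1 CPM in Chd8+/-, without overlap. The log2 fold change of Plxnc1 was -0.14 ± 0.0423 (adjusted p = 0.143, edgeR). Plxna4 had 212, 210.2 and 220.04 CPM in Chd8+/+ and 196, 207 and 199.5 CPM in Chd8+/-. These groups were also apart, at -0.090 ± 0.0384 (adjusted p = 0.261, edgeR). The remaining 6 plexins had log2 fold changes from -0.20 for Plxnb3, whose groups overlapped, to 0.023 for Plxna1, and none had an unadjusted p under 0.05. Plxnb3 was at -0.059 without Chd8+/- replicate 1 and at -0.11 without Chd8+/+ replicate 1.

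Of the ligands, Sema5a had 61.2, 56.5 and 56.5 CPM in Chd8+/+ and 43.6, 53.4 and 48.8 CPM in Chd8+/-. The groups did not overlap, and the log2 fold change was -0.26 ± 0.0676 (SE, adjusted p = 0.123 in edgeR and 0.0118 in DESeq2). Sema3c, an attractant of callosal axons that acts through Nrp1, had 40.1, 43.7 and 39.3 CPM in Chd8+/+ and 32.0, 37.7 and 34.2 CPM in Chd8+/-. It too was lower without overlap, at -0.24 ± 0.0655 (adjusted p = 0.125 in edgeR and 0.0198 in DESeq2). Sema3g, the scarcest of these, had 4.90, 3.71 and 3.73 CPM in Chd8+/+ and 3.43, 3.28 and 2.45 CPM in Chd8+/-. Its value was the most negative of all members, at -0.44, with a wide standard error of 0.158 (adjusted p = 0.199, edgeR).

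Sema3e, the ligand of Plxnd1, had 21.6, 20.04 and 16.5 CPM in Chd8+/+ and 13.1, 17.7 and 15.5 CPM in Chd8+/-. Here the groups overlapped, since Chd8+/- replicate 2 exceeded Chd8+/+ replicate 3, and the log2 fold change was -0.33 ± 0.119 (adjusted p = 0.199, edgeR). Sema4d, the ligand of Plxnb1, had 37.1, 40.1 and 39.4 CPM in Chd8+/+ and 35.3, 36.3 and 35.9 CPM in Chd8+/-, a log2 fold change of -0.12 ± 0.0466 (adjusted p = 0.237, edgeR) without overlap. Sema6a, a transmembrane ligand of Plxna2 and Plxna4, was the single member higher in Chd8+/- among the 11 at an unadjusted p under 0.05. It had 88.3, 89.9 and 86.4 CPM in Chd8+/+ and 92.5, 94.7 and 93.9 CPM in Chd8+/-, a log2 fold change of 0.087 ± 0.0316 (adjusted p = 0.199, edgeR). Sema4c, the other member whose groups did not overlap, was at -0.080 (adjusted p = 0.318, edgeR). In all, the genotypes did not overlap in 11 members, 10 lower and 1 higher. Of all genes, 12.2% were lower and 11% higher without overlap. The remaining 14 semaphorins, Sema4c among them, ran from -0.12 for Sema6d to 0.16 for Sema3b, and none had an unadjusted p under 0.05. Without Chd8+/+ replicate 2 Sema3b was at 0.040, and without Chd8+/- replicate 1 Sema6d was at -0.053.

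**Figure D3:**
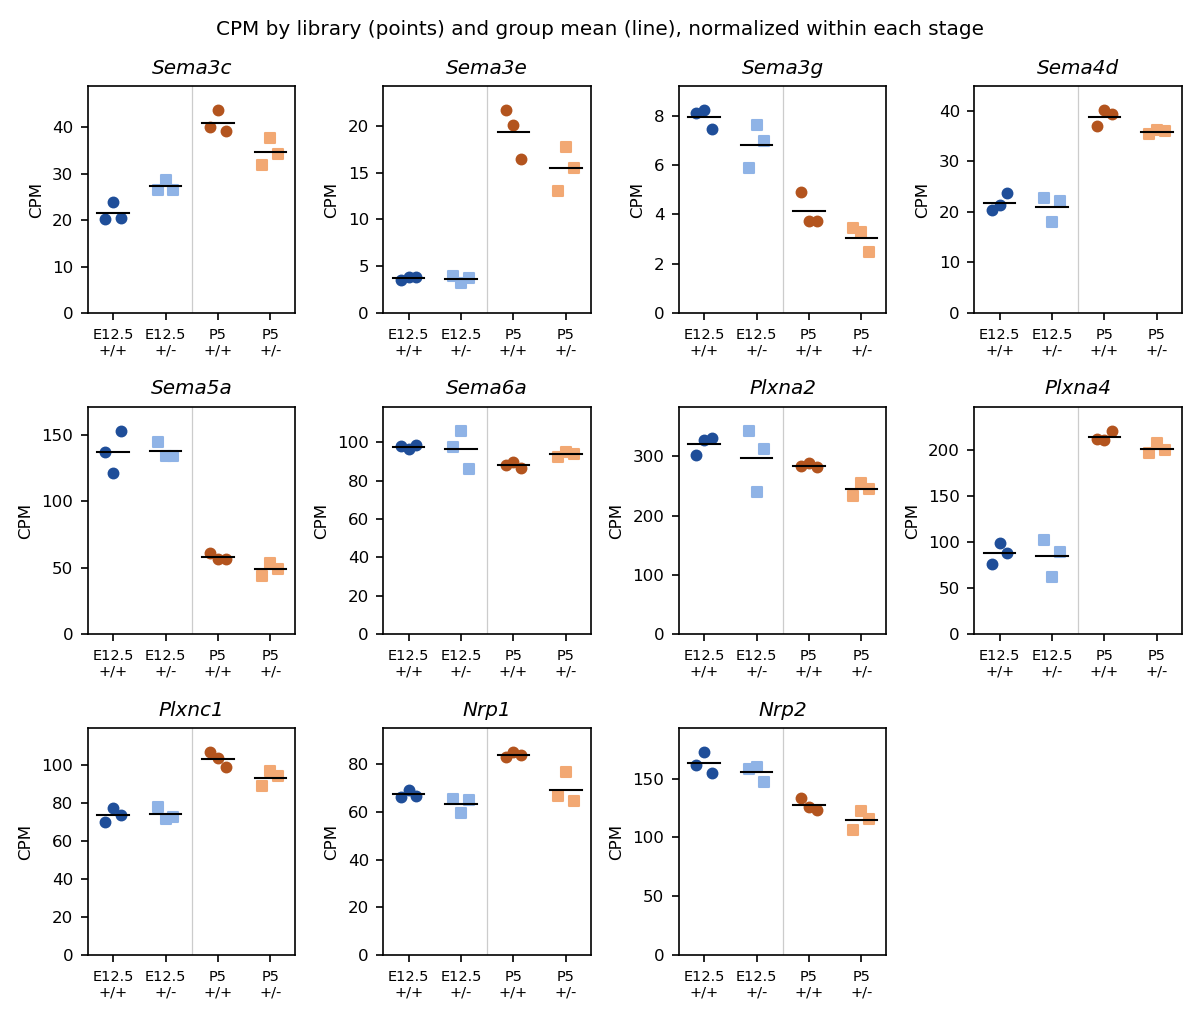
CPM of the 11 genes with an unadjusted p under 0.05 at P5, in each library (points) with the group mean (line), normalized within each stage so that the stages are not to be compared. At P5 the Chd8+/- points lie under the Chd8+/+ points in 9 genes, overlap in Sema3e and lie above in Sema6a, and at E12.5 Sema3c is higher in Chd8+/-.

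Single libraries carried weight in these comparisons. Without P5 Chd8+/- replicate 2, edgeR called 4 members, all lower, and 1.72% of all genes. The 4 members were Nrp1 at -0.35 (adjusted p = 0.0151), Plxna2 at -0.25 (0.0302), Sema5a at -0.33 (0.0316) and Sema3c at -0.31 (0.0410). Leaving out any other P5 library gave 0 calls. Without P5 Chd8+/- replicate 3, which stood apart from its group, 10 members had an unadjusted p under 0.05, 7 lower and 3 higher, where 15.7% of all genes did. Nrp1 was then at -0.22, Plxna2 at -0.21, Sema5a at -0.25 and Sema3c at -0.23. In each of the 6 fits that left out a library, Plxna2, Nrp1, Sema5a and Sema3c had an unadjusted p under 0.05 and a negative value. The other 7 lost that p in some fits. Plxnc1 kept it in 5 of 6, Nrp2 and Sema3g in 4, Sema3e and Sema6a in 3 and Plxna4 and Sema4d in 2. Nrp2 moved to -0.10 without Chd8+/- replicate 1, and Sema3g to -0.29 without Chd8+/+ replicate 1 or Chd8+/- replicate 3. When the expression filter was relaxed to 1 count over all libraries, edgeR called 7 members, all lower, adding Nrp2, Plxnc1 and Sema3e to those 4, and 3.18% of all genes.

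At P5 the genotype difference also followed gene size over all genes. Genes were put in 10 bins of equal size by genomic span, the distance between the first and last annotated base. The median log2 fold change was 0.056 in bin 2 and -0.065 in bin 10, the longest, where spans start at 121773 bases. The set is rich in long genes, with 12 of its 31 members in the longest bin, including Nrp1, Plxna2, Plxna4, Plxnc1, Sema3c, Sema3e, Sema5a and Sema6a. Of these 12, 11 were below 0 and 7 were lower at an unadjusted p under 0.05, and their median was -0.13, with 9 under the median of their bin. Of all genes in this bin, 72.8% were below 0, and 27.6% were lower at that p, compared with 7.79% of the genes in the other bins. Among the 19 shorter members, 9 were below 0, 3 were lower at that p, and the median was 0.023. Sema3g, with a span of 12491 bases, was -0.48 from the median of its bin.

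After an offset for exon length the members' median was 0.0078, and 7 members were lower and 2 higher at an unadjusted p under 0.05, where 6.56% of all genes were lower and 6.84% higher. With the offset for genomic span it was -0.019, with 8 lower and 1 higher, where 6.81% and 6.5% of all genes were. Nrp1 was then at -0.22 (adjusted p = 0.174, edgeR), Plxna2 at -0.15 (0.230), Sema5a at -0.17 and Sema3c at -0.18 (0.264 each), and Plxna4 at 0.0030. Plxna4, Plxnc1 at -0.082 and Sema4d at -0.070 lost an unadjusted p under 0.05 with this offset, and Sema4c gained it at -0.11. With the offset for exon length Plxna2 was at -0.14. Nrp2 at -0.088, Sema4d at -0.080 and Plxna4 at -0.016 lost that p, and Sema4a gained it at 0.14. The part of gene length in these differences was not tested beyond these offsets.

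**Figure D4:**
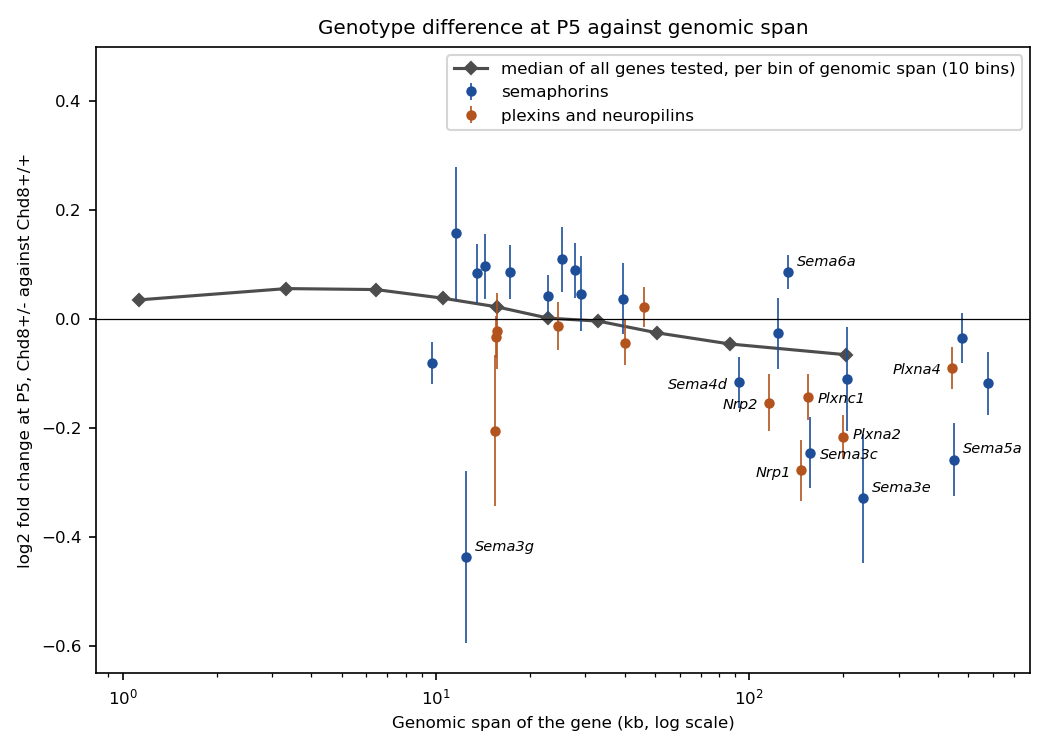
Log2 fold change of each member at P5, with bars for the standard error, against its genomic span in kilobases on a log scale, and the median of all tested genes in each of 10 bins of span (grey diamonds). The grey line goes from 0.056 in bin 2 to -0.065 in the longest bin, and names mark the 11 members with an unadjusted p under 0.05.

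Markers of some other cell types were lower in Chd8+/- at P5 at an unadjusted p under 0.05, where 9.77% of all genes were. All 8 striatal medium spiny neuron markers were lower, with a summed level of 391 to 416 TPM in Chd8+/+ and 279 to 354 TPM in Chd8+/-. For the choroid plexus, 7 of 8 markers were lower, with sums of 1166 to 1466 TPM and 820 to 1025 TPM. GABAergic interneuron markers summed to 1339 to 1372 TPM and 1278 to 1328 TPM, with 3 of 8 lower. Erythrocyte markers summed to 496 to 520 TPM and 438 to 480 TPM, with 2 of 6 lower and 1 higher. Cortical progenitor sums overlapped, at 378 to 383 TPM and 345 to 384 TPM, with 4 of 11 markers lower and 1 higher. Endothelial sums overlapped, at 250 to 271 TPM and 234 to 256 TPM, with 4 of 10 markers lower. Cortical excitatory neuron sums overlapped as well, at 1332 to 1398 TPM and 1274 to 1397 TPM, with 2 of 10 markers lower and 1 higher. None of 10 oligodendrocyte lineage, 7 astrocyte and 8 microglia markers had such a p, and of 8 meninges markers 1 was higher. DESeq2 called 6 of the striatal markers, 3 of the choroid plexus, 2 of the excitatory neuron, 1 of the interneuron and 1 of the endothelial markers. It called no marker of the other lists, and 5.28% of all genes. No marker on these lists was at 0 in any group, and their part in the lower values of Nrp1, Sema3g, Sema3c and other members was not tested.

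The genotypes were compared at E12.5 in the same way. No member passed in edgeR, where 0.00553% of 18081 genes passed, again Chd8 alone, and DESeq2 called 0 of 31 members and 0.0374% of 13360 genes. At an unadjusted p under 0.05 there were 5 members of the 30 tested, 2 higher and 3 lower, or 16.7%, where 5.15% of all genes had such a p, 2.31% higher and 2.84% lower. Plxnb3 was not tested because its counts were too low. Sema3c was the leading gene, and it was higher. It had 20.3, 24.0 and 20.5 CPM in Chd8+/+ and 26.6, 28.6 and 26.6 CPM in Chd8+/-, with no overlap, a log2 fold change of 0.34 ± 0.076 (SE, adjusted p = 0.924, edgeR) and an unadjusted p under 0.05 in each of the 6 fits without a library. Sema3a had 29.9, 32.7 and 30.8 CPM in Chd8+/+ and 35.2, 33.1 and 37.2 CPM in Chd8+/-, also higher without overlap, at 0.18 ± 0.0633 (adjusted p = 0.942, edgeR). Sema3a kept an unadjusted p under 0.05 in 3 of those 6 fits and lost it with offsets for genomic span.

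The lower members were a receptor and a pair of class 4 ligands. Plxnd1, which endothelial cells use to read Sema3e, had 105, 106 and 104 CPM in Chd8+/+ and 94.3, 91.4 and 95.3 CPM in Chd8+/-. It did not overlap, at -0.17 ± 0.0392 (SE, adjusted p = 0.924, edgeR). Sema4f had 9.41, 9.38 and 8.86 CPM in Chd8+/+ and 8.06, 7.92 and 8.15 CPM in Chd8+/-, lower without overlap, at -0.20 ± 0.0776 (adjusted p = 0.942, edgeR). Sema4g had 76.3, 70.0 and 65.6 CPM in Chd8+/+ and 67.3, 62.3 and 61.9 CPM in Chd8+/-, and these groups overlapped, at -0.15 ± 0.0651 (adjusted p = 0.942, edgeR). When a library was left out, Plxnd1 kept an unadjusted p under 0.05 in 6 of 6 fits, Sema4g in 2 and Sema4f in 1. Sema4g was at -0.089 without Chd8+/+ replicate 1. With offsets for genomic span, Sema4f and Sema4g lost that p. Nrp1 was lower without overlap here as well, at -0.089, but did not reach an unadjusted p under 0.05 (adjusted p = 0.944, edgeR). It ran from -0.11 to -0.047 when a library was left out. Counting only groups that did not overlap gives 2 members higher and 3 lower, compared with 5.45% and 5.9% of all genes.

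The other members at E12.5 ran from -0.21 for Sema3g to 0.38 for Sema3d, whose standard error was 0.236. Both ends rested on single libraries, since Sema3d was at 0.074 without Chd8+/- replicate 2 and Sema3g at -0.12 without Chd8+/- replicate 1. The summed endothelial marker level was 160 to 174 TPM in Chd8+/+ and 146 to 154 TPM in Chd8+/-, without overlap. All 8 tested markers were below 0. Of these, 2 were lower at an unadjusted p under 0.05, where 2.84% of all genes were. Without overlap 3 were lower, compared with 5.9% of all genes. The part of the endothelial marker level in the Plxnd1 value was not tested. The median of all genes was -0.017 in the shortest bin of genomic span and 0.016 in the longest. This trend was smaller than that at P5 and ran the other way. In the longest bin, which holds Sema3c and Sema3a, 42.4% of genes were below 0, compared with 53.9% in the shortest. Genes lower at an unadjusted p under 0.05 made up 1.44% of the longest bin and 3.00% of the other bins. The part of gene size in the E12.5 differences was not tested beyond the offsets. Replicate spread was wider for some members at E12.5, for example in Plxna2, where the Chd8+/- libraries had 342, 240 and 312 CPM.

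**Figure D5:**
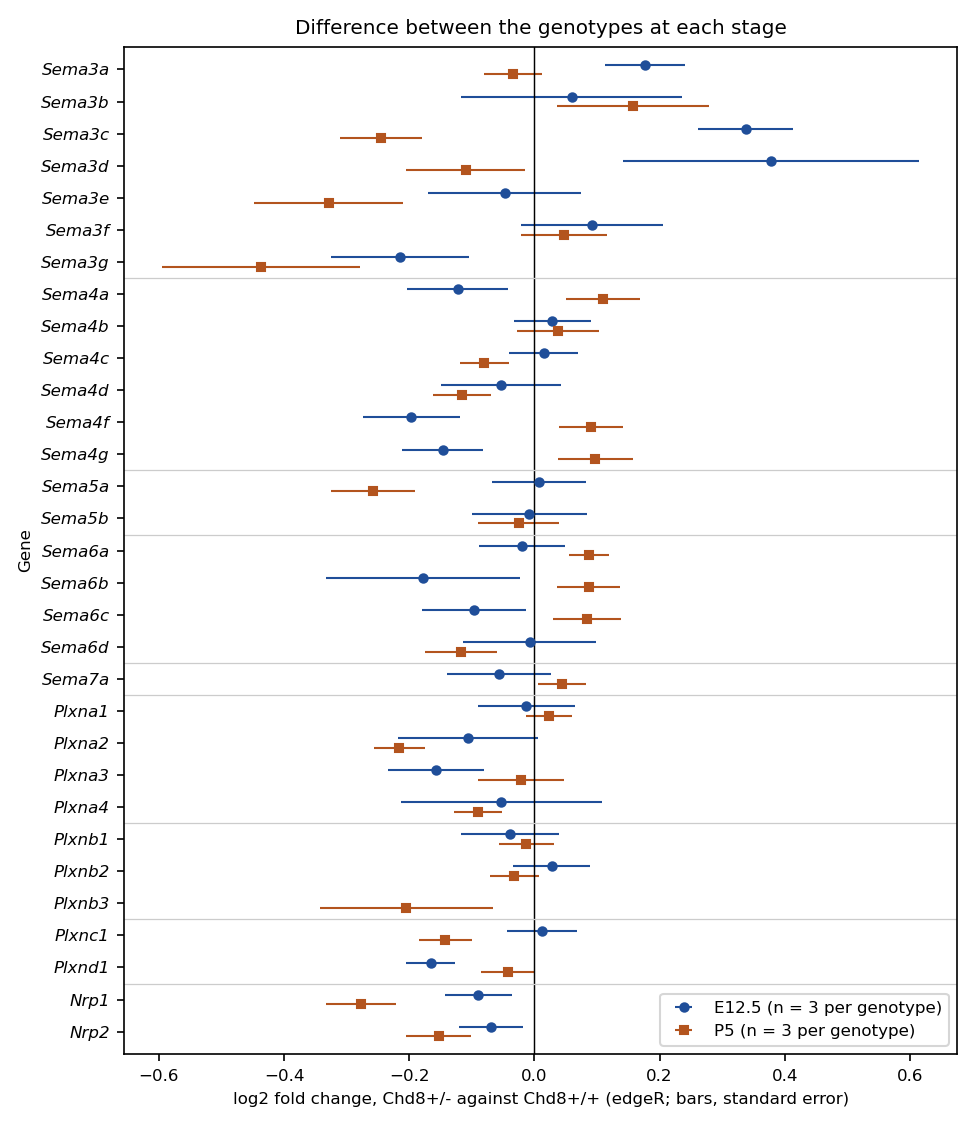
Log2 fold change of Chd8+/- against Chd8+/+ for each gene at E12.5 (blue circles) and P5 (orange squares), with bars for the standard error of the edgeR fits on 6 libraries each. Most values lie within 0.2 of 0, and Sema3c is at 0.34 at E12.5 and at -0.24 at P5.

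Whether the genotype difference itself depended on stage was tested with an interaction term over the 12 libraries. edgeR called 0 members and 0% of 19676 genes, and 7 members had an unadjusted p under 0.05, 2 above 0 and 5 below, where 10% of all genes did, 3.15% above 0 and 6.87% below. DESeq2 called 1 member, Sema3c, and 0.0938% of 8533 genes. The interaction of Sema3c, that is its P5 minus its E12.5 log2 fold change, was -0.60 ± 0.109 (SE, adjusted p = 0.362 in edgeR and 0.00267 in DESeq2). All 3 Chd8+/- libraries were above the controls at E12.5 and all 3 were below them at P5. Within Chd8+/+ the rise of Sema3c from E12.5 to P5 was 0.98, and within Chd8+/- it was 0.38, and both passed. The other members with an unadjusted p under 0.05 were Sema3a at -0.23, Nrp1 at -0.20, Plxnc1 at -0.17, Sema5a at -0.28, Sema4f at 0.27 and Sema4g at 0.23. When a library was left out, Sema3c and Sema4f kept that p in 12 of 12 fits, Sema3a in 10, Sema4g in 8, Sema5a in 7, and Nrp1 and Plxnc1 in 5. Plxnc1 moved to -0.11 without either replicate 1 library of E12.5, and Sema5a to -0.18 without E12.5 Chd8+/+ replicate 2. The P5 differences rest on the same libraries as the interaction, so these are not separate evidence.

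The partners of the pathway were taken from a list of 39 genes, 38 of which were tested, with 11 co-receptors or other ligands and 27 intracellular proteins. At P5 edgeR called 0 of them, and 14 had an unadjusted p under 0.05, 9 lower and 5 higher in Chd8+/-. This is 36.8%, where 17.8% of all genes had such a p. DESeq2 called 6, where it called 5.28% of all genes. The 4 lower with the smallest p were Flt1 at -0.43 and Kdr at -0.36, both receptors of VEGF, which also binds Nrp1, and L1cam at -0.15 and Nrcam at -0.16, adhesion proteins that associate with neuropilins. Their edgeR adjusted p were 0.110, 0.117, 0.116 and 0.121. On the higher side were Dpysl2 at 0.18, a microtubule-binding mediator of Sema3a signalling, Sh3bp1 at 0.14, a GTPase-activating protein downstream of Sema3e, the kinase Cdk5 at 0.11 and the plexin-binding GTPase Rnd1 at 0.13.

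Among the 11 co-receptors and other ligands, 9 were below 0 at P5 with a median of -0.15, whereas the 27 intracellular partners were split, 13 below 0, with a median of 0.010. Of all genes, 49.6% were below 0. The difference between these kinds of partner, and the part of gene span in it, was not tested. At E12.5 only Kdr, lower at -0.21 (adjusted p = 0.924, edgeR), and Pak1, a kinase downstream of Rac, higher at 0.16 (adjusted p = 0.942), had an unadjusted p under 0.05, which is 2 of 38 partners where 5.15% of all genes had such a p. Between the stages in Chd8+/+ edgeR called 31 of 38 partners, 23 higher and 8 lower at P5, near the background of 83.1%. The rises with the smallest p were those of Met at 6.47, Mical2, an actin-oxidizing enzyme, at 4.82, Rnd1 at 3.61 and Dpysl5 at 1.86. The falls with the smallest p were those of Erbb2 at -1.86, Rhoa at -0.65, Itgb1 at -0.73 and Farp2 at -0.89. In Chd8+/- 30 partners were called, 21 higher and 9 lower, near the background of 82.9%.

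Some members share exon bases with another annotated gene, and the counting recorded for P5 used no strand. The share was 10.7% of the exon bases for Plxna1, 7.27% for Sema4c and 0.78% for Plxna4. Sema4a, Plxnb1 and Nrp1 also share bases with a small RNA or predicted gene. Reads in these stretches cannot be assigned with certainty.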

How the data were processed

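Libraries were dUTP stranded and sequenced paired-end. The authors trimmed reads with Trim Galore 0.4.1, aligned them with TopHat2 2.1.0 to GRCm38 and deposited whole-number counts per Ensembl gene from featureCounts 1.5.0, with no strand option in the P5 file header and none recorded for E12.5. The exon lengths deposited beside the counts were used for TPM. All 24 count columns were used, and the 2 runs of each library were summed.

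CPM, TPM and tests were computed here. edgeR 4.0.16 (R 4.3.3; TMM, filterByExpr, quasi-likelihood F test, Benjamini-Hochberg threshold 0.05) was fitted to all genes, on 6 libraries for genotype within a stage and on 12 libraries in 4 groups for stage and genotype by stage. Its adjusted p are those given as edgeR. The script was tested on simulated data. Alternatives were DESeq2 1.42.0, limma 3.58.1 voom, other normalization, filters and threshold, loess offsets (span 0.5) for exon length, a replicate block, leaving out each library and, chosen after seeing the data, a sex term and offsets for genomic span. Members with an unadjusted p under 0.05 between genotypes are given by library. For stage, the 3 largest rises and falls of ligands and of receptors called in both genotypes are given in full, and at most 4 partners are named per direction. Members and lists were chosen with earlier results of these data known.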

Additional observations from a re-analysis of the deposited data

Results flagged for a closer look

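Sema3c was singled out because its genotype difference ran in opposite directions at the 2 stages. Every Chd8+/- library lay above the controls at E12.5 (log2 fold change 0.34) and below them at P5 (-0.24). The interaction was -0.60 ± 0.109 (SE), called by DESeq2 (adjusted p = 0.00267) and not by edgeR with its expression filter (0.362). In the 12 fits that left out a library it ran from -0.66 to -0.53, with an unadjusted p under 0.05 in each. Sema3c was picked on values of the same libraries, so the interaction and these fits are not separate evidence.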

How the results depend on the processing

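At P5, 0 members were called by edgeR, 2 at an adjusted p of 0.1, 4 by DESeq2 and 7 with genes of at least 1 count kept, and fits without a library called 0 to 4, the 4 being without Chd8+/- replicate 2. Of the partners, DESeq2 called 6, the filter of at least 1 count gave 6, and fits without a library called 0 to 2, the 2 also without Chd8+/- replicate 2. The members' median log2 fold change at P5 was 0.0078 with offsets for exon length and -0.062 to -0.014 without a library. Plxna4 at P5 changed sign with offsets for genomic span, to 0.0030. At E12.5 the median ran from -0.10 to -0.0081 without a library. Between stages the median with offsets for exon length was 0.33 in Chd8+/+ and 0.31 in Chd8+/-, with offsets for genomic span 0.21 and 0.22, and without a library 0.48 to 0.55 in Chd8+/+. For genotype by stage, DESeq2 called 1 member and the filter of at least 1 count gave 1, in both cases Sema3c, and the median was 0.0027 with offsets for exon length, 0.0078 for genomic span and -0.088 to 0.0054 without a library. The causes were not tested. Over all members and alternatives, calls were gained for 7 members at P5 (17 values) and for Sema3c by stage (2 values). Between stages, calls were lost in 4 values in Chd8+/+ and 15 in Chd8+/-, gained in 10 and 2, and called values changed sign in 4 and 6, all of them with offsets for exon length or genomic span.

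Same-numbered P5 libraries had correlations of 0.255, 0.115 and 0.029 between genotypes, and those at E12.5 of -0.31, -0.14 and -0.16, so the numbers were not taken as pairs. With a replicate block edgeR called 0 members at P5 and at E12.5, 28 and 29 between stages and 0 for genotype by stage, and 8 of 31 members and 2554 of 18666 genes had an unadjusted p under 0.05 at P5. P5 Chd8+/+ replicate 2 correlated best with Chd8+/- replicate 3 (0.149). With 3 libraries per group, small differences in scarce genes such as Sema3g and Plxnb3 are poorly resolved.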
